A study of Mus musculus with 16 samples.

Results

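The 9 genes described here encode enzymes of the tricarboxylic acid cycle, namely Cs, Idh2, Idh3a, Idh3b, Idh3g, Ogdh, Suclg1, Fh1 and Mdh2. They were chosen by name, and each had 1 row in a table of 57143 genes. The data are polyA RNA-seq counts from the left ventricle of male C57BL/6 mice after abdominal surgery under sevoflurane, an inhaled anaesthetic. There were 4 libraries at 3h, 4 at 24h and 4 at 7d after surgery, and 4 at 0h, the group the others are set against. The labels give no genotype and no age, and they name post-abdominal surgery as the treatment of the 0h libraries too, so no group is stated to be free of surgery. The labels do not say that the 4 libraries of a time came from separate animals, so p-values measure the spread between these libraries, which may be technical.

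The tricarboxylic acid cycle runs in the mitochondrial matrix, where it oxidises the acetyl groups of acetyl-CoA to carbon dioxide. It passes the electrons, mostly as NADH, to the respiratory chain, which uses them to make ATP. Heart muscle is rich in mitochondria, and much of its acetyl-CoA comes from fatty acids, with the rest from pyruvate, lactate and ketone bodies.

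In order of the cycle, citrate synthase (Cs) joins acetyl-CoA to oxaloacetate. NAD-dependent isocitrate dehydrogenase then makes 2-oxoglutarate with its catalytic subunit Idh3a and its regulatory subunits Idh3b and Idh3g. Idh2 is the separate NADP-dependent isocitrate dehydrogenase of the matrix, known as a source of mitochondrial NADPH. Ogdh is the first component of the 2-oxoglutarate dehydrogenase complex, and Suclg1 is the alpha subunit that both forms of succinyl-CoA synthetase share. Fumarate hydratase (Fh1) makes malate, and the mitochondrial malate dehydrogenase (Mdh2) turns it back into oxaloacetate.

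The genes lie on 9 chromosomes, so none neighbours another. In GRCm38, Cs is at chr10:128337734-128362479, Idh3a at chr9:54586334-54604661, Idh3b at chr2:130279309-130284547 and Idh3g at chrX:73778963-73786897. Idh2 is at chr7:80094846-80115392, Ogdh at chr11:6291633-6356642, Suclg1 at chr6:73248382-73276911, Fh1 at chr1:175600374-175625635 and Mdh2 at chr5:135778480-135790398. All 9 are annotated as protein-coding. Exons of Idh3b overlap exons of Nop56 on the opposite strand, and because the strand setting of the counting is not given in the sources used here, the Idh3b counts are uncertain to that extent. Nop56 averaged 18.7 TPM over the 16 libraries, against 917 TPM for Idh3b.

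Idh3g and Idh2 are the genes whose RNA passed the test for change reported below. Both results depended on how the libraries were scaled, and that of Idh2 also on single libraries. Idh3b, a subunit of the same enzyme as Idh3g, did not pass that test. The promoter windows below are those of these 3 genes. Each holds the 250 bases before and the 50 bases after a transcription start in RefSeq, 5′ to 3′ on the gene's own strand, which is the minus strand for all 3. For Idh2 and Idh3b that start lies inside the gene's ends as given above from GENCODE, and motif positions are counted from it. The windows are of RefSeq build GRCm38.p6, at chrX:73786848-73787147 for Idh3g, chr7:80115301-80115600 for Idh2 and chr2:130284402-130284701 for Idh3b. Capitals mark AAGATGGC, a YY1 motif, and CCGGAAG, a motif of the ETS family that includes GABP, in Idh3g. In Idh2 they mark GGGCGG, an Sp1 family motif, and its complement CCGCCC, and in Idh3b they mark CTTCCGG, the complement of CCGGAAG.
Idh3g: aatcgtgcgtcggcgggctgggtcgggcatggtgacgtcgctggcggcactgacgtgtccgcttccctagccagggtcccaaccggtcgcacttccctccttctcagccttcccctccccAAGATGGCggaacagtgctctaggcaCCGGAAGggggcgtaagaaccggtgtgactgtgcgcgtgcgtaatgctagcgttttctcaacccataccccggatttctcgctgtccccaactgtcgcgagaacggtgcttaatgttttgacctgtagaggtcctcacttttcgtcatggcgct
Idh2: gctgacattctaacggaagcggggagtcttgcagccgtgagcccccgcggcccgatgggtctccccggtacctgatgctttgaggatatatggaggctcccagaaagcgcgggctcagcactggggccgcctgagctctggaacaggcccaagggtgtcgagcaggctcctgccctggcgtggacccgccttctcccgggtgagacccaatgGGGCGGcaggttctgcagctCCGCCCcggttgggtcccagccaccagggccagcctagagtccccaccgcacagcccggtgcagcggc
Idh3b: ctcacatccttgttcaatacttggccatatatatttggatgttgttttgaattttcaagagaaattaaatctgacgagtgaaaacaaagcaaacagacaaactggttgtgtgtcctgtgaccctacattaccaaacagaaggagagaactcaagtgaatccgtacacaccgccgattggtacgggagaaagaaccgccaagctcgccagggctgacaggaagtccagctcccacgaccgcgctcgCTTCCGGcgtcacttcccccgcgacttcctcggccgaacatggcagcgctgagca

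Windows were present for 8 of the 9 genes, 13 windows in all since Ogdh has several starts, and 7 motifs were searched on both strands. AAGATGGC was found for Idh3g alone of the 8 genes, 130 bases before its start, and 2.75% of all 32851 windows hold it. CCGGAAG was found 104 bases before the start of Idh3g and, on the other strand, 5 bases before that of Idh3b, and 8.86% of all windows hold it. GGGCGG was found for Cs, Fh1, Idh2, Mdh2 and Ogdh and in 35.7% of all windows. TGACGTCA, a cAMP response element, was found for Mdh2 and Ogdh and in 1.79% of all windows. For Ogdh, windows of different starts also held AAGGTCA, a motif of the oestrogen-related receptors (ERR) found in 4.72% of all windows, and CACGTG, an E-box found in 7.15%. The NRF1 motif, found in 4.6% of all windows, was in none of the members' windows, and Suclg1 held none of the 7 motifs. The motifs found did not overlap each other in the 3 windows shown.

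All 9 genes were among the more abundant transcripts of the ventricle. In TPM (a level scaled by gene length and by library), Idh2 averaged 2801 over the 16 libraries and ranked 36 of the 16866 genes tested. Ogdh averaged 990 TPM (rank 155), Mdh2 987 TPM (rank 156), Idh3b 917 TPM (rank 170), Cs 651 TPM (rank 242), Idh3g 585 TPM (rank 269), Fh1 450 TPM (rank 344), Idh3a 382 TPM (rank 398) and Suclg1 275 TPM (rank 531). Neighbours in this order had ranges over the libraries that crossed, except that Idh2, at 2120 TPM or more, was always above Ogdh, at 1270 TPM or less, and Idh3a, at 320 TPM or more, always above Suclg1, at 319.1 TPM or less. The lowest count of any of the 9 genes in any library was 3150, in libraries that held 8313655 to 12893551 counts in all.

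The sum of the 9 genes was 7489 ± 618 TPM at 3h, 8184 ± 859 TPM at 24h and 8430 ± 517 TPM at 7d, against 8050 ± 213 TPM at 0h (SD, n = 4 each). The groups overlapped at every time. The 0h libraries lay closest together for the sum and for 8 of the 9 genes on their own, the exception being Mdh2, which varied least at 3h. The coefficient of variation of Ogdh was 27.8% at 24h against 6.02% at 0h, and that of Cs was 22.9% at 24h against 2.88% at 0h. Ogdh and Cs thus differed most among libraries of 1 time after surgery.

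**Figure D1:**
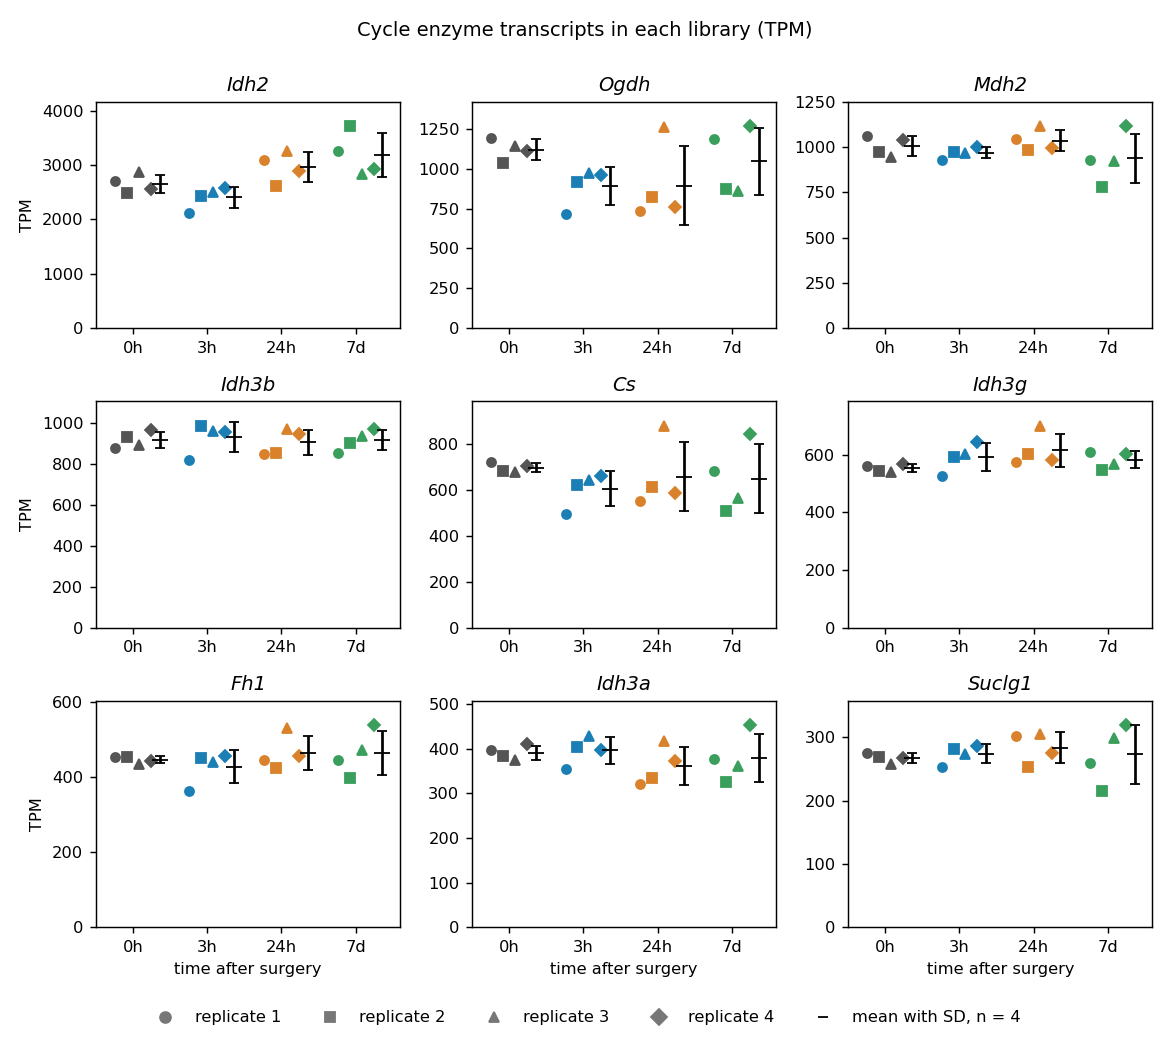
TPM (vertical axes from 0) of the 9 genes in each of the 16 libraries by time after surgery, in order of mean level; symbols mark replicates, and bars the mean with its SD (n = 4). Idh3g at 24h lies above every 0h library, and Ogdh and Cs at 24h have 1 library, replicate 3, far above the other three.

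At 24h, 2 of the 9 genes, Idh2 and Idh3g, were higher than at 0h, and none was lower. A gene is said here to have risen or fallen where its adjusted p was under 0.05 in edgeR's quasi-likelihood test over all genes. At 24h that was so for 17.4% of the 16866 genes tested, with 9.2% higher and 8.19% lower, so 2 of 9 is close to the share among all genes and says nothing particular about the enzymes of the cycle. Their median log2 fold change at 24h was 0.26, with 8 of 9 above 0, and the median of all genes was -0.01. That distance was about as large with library totals, at 0.15 for the 9 genes against -0.12 for all genes. It was also kept on the log2(TPM + 1) scale, at 0.04 against -0.19. With quantile normalization it was gone, at 0.01 for the 9 genes against 0 for all genes. An unadjusted p under 0.05 was found for 5 of the 9 genes and for 32.4% of all genes. DESeq2 called 5 of the 9 genes higher at 24h, adding Mdh2, Fh1 and Suclg1. Of all 16866 genes it called 3542 at 24h, 1955 of them higher.

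Idh3g, the regulatory subunit, had 574.4, 603.9, 700.8 and 582.5 TPM at 24h, against 560.5, 542.2, 540.2 and 567.9 TPM at 0h. All 4 libraries at 24h lay above all 4 at 0h, replicates 1 and 4 only narrowly. On the scale of the test, counts per library size (CPM) scaled by TMM, which sets the libraries equal for the bulk of genes, Idh3g had 603.3, 541.4, 629 and 628.4 CPM at 24h, against 449, 464, 447.8 and 500.8 CPM at 0h. These groups stood further apart than the TPM values. The log2 fold change was 0.37 (SE 0.10, edgeR adjusted p = 0.0131), or 1.29-fold with a 95% interval of 1.13 to 1.48. Idh3g passed the threshold at 24h in 16 of 16 fits that each left out 1 library, with adjusted p-values of 0.00795 to 0.0459.

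Idh2, the NADP-dependent enzyme, had 3094, 2620, 3261 and 2887 TPM at 24h, against 2705, 2485, 2868 and 2552 TPM at 0h. The groups overlapped, since replicate 2 at 24h lay below 2 of the 0h libraries, and the other three at 24h lay above all of them. In TMM-scaled counts Idh2 had 3113, 2250, 2805 and 2985 CPM at 24h, against 2076, 2038, 2278 and 2157 CPM at 0h. Here too only replicate 2 at 24h fell within the 0h range. The log2 fold change was 0.38 (SE 0.13, edgeR adjusted p = 0.0389), or 1.30-fold with a 95% interval of 1.10 to 1.55. The call rested on single libraries: it was lost without any 1 of the 0h libraries, without replicate 2 at 3h, and without replicate 1 or 4 at 24h, with adjusted p-values of 0.0535 to 0.13.

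Both calls depend on how the libraries are scaled. On a log2(TPM + 1) scale the median of all genes at 24h was lower by 0.19 than at 0h, while Idh3g was higher by 0.15 (limma adjusted p = 0.176) and Idh2 by 0.16 (limma adjusted p = 0.262), so each lay above the bulk of genes by about as much as under TMM but not above its own level at 0h beyond the threshold. With quantile normalization the log2 fold change was 0.12 for Idh3g (adjusted p = 0.382) and 0.09 for Idh2 (adjusted p = 0.649).

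Suclg1, Fh1 and Mdh2 had an unadjusted p under 0.05 at 24h and did not pass the adjustment. Suclg1, of succinyl-CoA synthetase, averaged 284 ± 24.6 TPM at 24h and 267 ± 7.73 TPM at 0h (SD, n = 4 each), with a log2 fold change in TMM-scaled counts of 0.31 (SE 0.12, edgeR adjusted p = 0.0748). Fh1 averaged 464 ± 46.0 TPM at 24h and 446 ± 8.80 TPM at 0h, with a log2 fold change of 0.27 (SE 0.11, edgeR adjusted p = 0.087). Mdh2 averaged 1036 ± 58.8 TPM at 24h and 1006 ± 55.0 TPM at 0h, with a log2 fold change of 0.26 (SE 0.11, edgeR adjusted p = 0.113). In each of the 3 genes the groups overlapped.

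Without replicate 2 at 24h, both Suclg1 (adjusted p = 0.0256) and Fh1 (adjusted p = 0.0321) passed the threshold of edgeR's test, and 4 of the 9 genes were then higher than at 0h. That library had the lowest median deviation of the 9 genes from their 0h mean at 24h, 0.01 on the log2 CPM scale, against 0.28 to 0.39 in the other three.

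Cs, Idh3a, Idh3b and Ogdh gave no call and small fold changes at 24h. The log2 fold changes in TMM-scaled counts were 0.20 for Idh3b, 0.12 for Cs, 0.10 for Idh3a and -0.12 for Ogdh, with edgeR adjusted p-values of 0.225 to 0.58. The 95% intervals of their folds were 0.99 to 1.34 for Idh3b, 0.90 to 1.31 for Cs, 0.92 to 1.25 for Idh3a and 0.76 to 1.11 for Ogdh. They give roughly the sizes of change that these libraries do not exclude, and are somewhat narrower than edgeR's test implies. On the TPM scale and with quantile normalization Cs and Idh3a lay below 0h instead, and on the TPM scale so did Idh3b. Ogdh passed as lower with quantile normalization, at -0.45 (adjusted p = 0.033), and under no other setting tried.

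**Figure D2:**
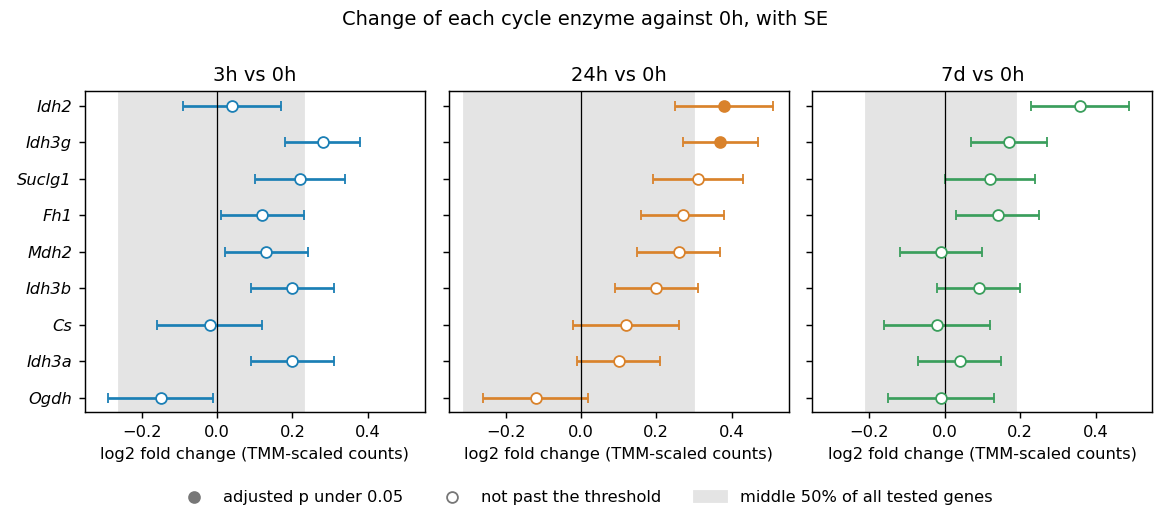
Log2 fold change against 0h (horizontal axes, TMM-scaled counts) of the 9 genes at 3h, 24h and 7d, with the SE as bars; filled points have an edgeR adjusted p under 0.05, and the grey band runs from the lower to the upper quartile of all tested genes. The filled points are Idh2 and Idh3g at 24h, at 0.38 and 0.37.

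At 3h, no gene of the 9 passed the threshold in edgeR's test, where 5.04% of all genes did, and 1 had an unadjusted p under 0.05. That gene was Idh3g, with 526.7, 592.5, 602.2 and 642.7 TPM at 3h against the 0h values above, and a log2 fold change of 0.28 (SE 0.10, edgeR adjusted p = 0.0976). In 3 of the 4 libraries at 3h its TPM was above every 0h library. Cs, at 494 to 662 TPM, and Ogdh, at 719 to 973 TPM, lay below every 0h library at 3h. Their log2 fold changes in TMM-scaled counts were -0.02 (edgeR adjusted p = 0.944) and -0.15 (edgeR adjusted p = 0.553). DESeq2 called Idh3g at 3h, and the 9 genes spanned log2 fold changes of -0.15, for Ogdh, to 0.28. Idh2 was near its 0h level at 3h, with 2120, 2427, 2497 and 2573 TPM and a log2 fold change of 0.04 (SE 0.13, edgeR adjusted p = 0.884).

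At 7d, again no gene of the 9 passed the threshold in edgeR's test, where 0.86% of all genes did, and 1 had an unadjusted p under 0.05. DESeq2 and limma called none of the 9 at 7d. Idh2 was the gene with the low unadjusted p, with 3261, 3719, 2830 and 2921 TPM at 7d. Its log2 fold change against 0h was 0.36 (SE 0.13, edgeR adjusted p = 0.171), and replicate 2 had the highest Idh2 level of all 16 libraries. Idh3g had 610.9, 546.1, 569.3 and 600.8 TPM at 7d and a log2 fold change of 0.17 (SE 0.10, edgeR adjusted p = 0.438).

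Between times after surgery, no gene of the 9 passed the threshold in edgeR's test, and 1 had an unadjusted p under 0.05 in each comparison. Of all genes, 7.58% passed at 24h against 3h, 8.08% at 7d against 24h and 4.61% at 7d against 3h. Idh2 did not overlap between 24h and 3h or between 7d and 3h in TPM, with log2 fold changes of 0.34 (edgeR adjusted p = 0.104) and 0.32 (edgeR adjusted p = 0.164). Mdh2 had the lowest adjusted p at 7d against 24h, 0.147 by edgeR's test, with a log2 fold change of -0.27 and 938 ± 137 TPM at 7d against 1036 ± 58.8 TPM at 24h (SD, n = 4 each). DESeq2 called Idh2 higher at 24h than at 3h, and Idh3g and Mdh2 lower at 7d than at 24h. In a test for any change over the 4 times, Idh2 (edgeR adjusted p = 0.0379) and Idh3g (edgeR adjusted p = 0.04) passed, as did 20.2% of all genes. In fits that left out 1 library between 0 and 2 of the 9 genes passed that test.

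The levels of Idh2 and Idh3g relative to Idh3a do not depend on how libraries are scaled, because both genes of a ratio come from the same library. In TPM, Idh3g was 1.79, 1.80, 1.68 and 1.56 times Idh3a at 24h, against 1.41, 1.41, 1.44 and 1.38 times at 0h. No 24h library overlapped a 0h library. The difference of the log2 ratios was 0.27, from 0.77 ± 0.10 at 24h and 0.50 ± 0.03 at 0h (SD, n = 4 each), and the exact two-sided permutation test gave p = 0.0286, the smallest that 4 against 4 libraries allow.

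Idh2 was 9.67, 7.82, 7.81 and 7.74 times Idh3a at 24h, against 6.83, 6.48, 7.66 and 6.21 times at 0h. Again the groups did not overlap, although replicate 3 at 0h came close. The log2 ratio was higher at 24h by 0.28 than at 0h and by 0.44 than at 3h, each with p = 0.0286 in the exact two-sided permutation test. Idh3g relative to Idh3b was higher at 24h by 0.17 on the log2 scale than at 0h (exact permutation p = 0.0571), and Idh3b relative to Idh3a by 0.10 (exact permutation p = 0.114). Over the 24 comparisons of 4 ratios, none passed Benjamini-Hochberg adjustment, with a lowest adjusted p of 0.229. Because the smallest possible p is 0.0286, a few ratios that separate fully could not pass over 24 tests. The adjustment therefore cannot decide whether these ratios changed.

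**Figure D3:**
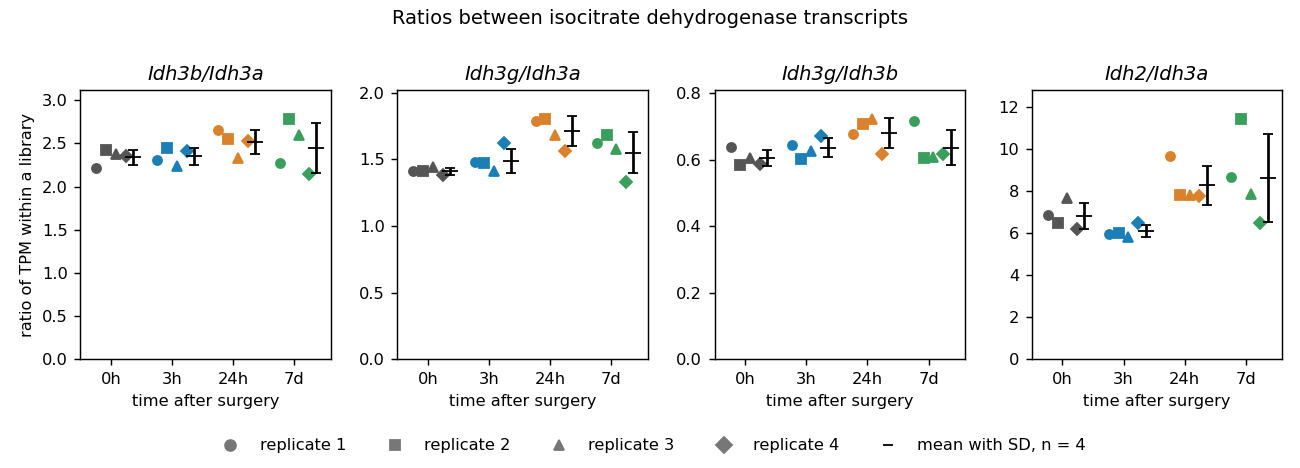
Ratios of TPM between isocitrate dehydrogenase transcripts (vertical axes from 0) in each of the 16 libraries by time after surgery; symbols mark replicates, and bars the mean with its SD (n = 4). At 24h the ratio of Idh3g to Idh3a was 1.56 to 1.80, above the 1.38 to 1.44 of the 0h libraries.

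Ogdh and Cs set 1 library apart. Ogdh had 735.8, 822.6, 1265 and 759.3 TPM at 24h, against 1198, 1037, 1145 and 1110 TPM at 0h. Replicate 3 at 24h was above every 0h library and the other three were below every one. Cs had 549, 613.3, 878.5 and 585.7 TPM at 24h, against 720.2, 683.4, 675.9 and 703.2 TPM at 0h, with the same library apart. In TMM-scaled counts Ogdh kept this pattern. Cs there had 1234, 1176, 1687 and 1352 CPM at 24h, against 1234, 1251, 1199 and 1327 CPM at 0h. Replicate 3 was again the highest, but replicate 4 was also above every 0h library. At 7d, Ogdh had 1189, 876.2, 858.4 and 1270 TPM and Cs had 680, 505.4, 563.7 and 843.4 TPM, and replicates 1 and 4 were the high ones for both genes.

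The mean length of the transcribed genes, weighted by TPM, moved with these levels. It was 2695 to 2955 bases at 3h, 2749 to 3111 bases at 24h and 2871 to 3099 bases at 7d, against 3032 to 3156 bases at 0h. The 3111 bases were those of replicate 3 at 24h, where the other three had 2749 to 2879 bases, and at 7d replicates 1 and 4 had 3069 and 3099 bases against 2931 and 2871 in the other two. Cs and Ogdh have the longest deposited gene lengths of the 9, 5779 and 5456 bases, and Idh2 and Idh3g the shortest, 2588 and 2701 bases. A fit that removed each library's trend of counts on gene length was therefore run, chosen after the data had been seen.

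Across the 9 genes, the log2 fold change at 24h fell with log2 gene length, with a Pearson correlation of -0.79, which is across genes that are not independent replicates and that share the same 8 libraries. Over all 16866 genes the Pearson correlation was -0.08. The Spearman (rank) correlation was -0.24 over all genes and -0.83 across the 9. Among genes with a mean of 100 TPM or more, the median log2 fold change at 24h was 0.39 for those under 1500 bases, 0.30 from 1500 to 3000 bases, 0.14 from 3000 to 4500 bases and 0.06 above that. The values of Idh2 and Idh3g, 0.38 and 0.37, thus lay a little above the median of abundant genes of their length. With the length trend removed, Idh3g kept its call at 24h with a log2 fold change of 0.29 (edgeR adjusted p = 0.0387), Idh2 lost it at 0.30 (edgeR adjusted p = 0.0925), and Suclg1 passed at 0.34 (edgeR adjusted p = 0.0465). The Pearson correlation across the 9 genes was then -0.54. Idh3a, the denominator of the ratios to Idh2 and Idh3g, is also the longer gene in both, at 5072 bases.

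**Figure D4:**
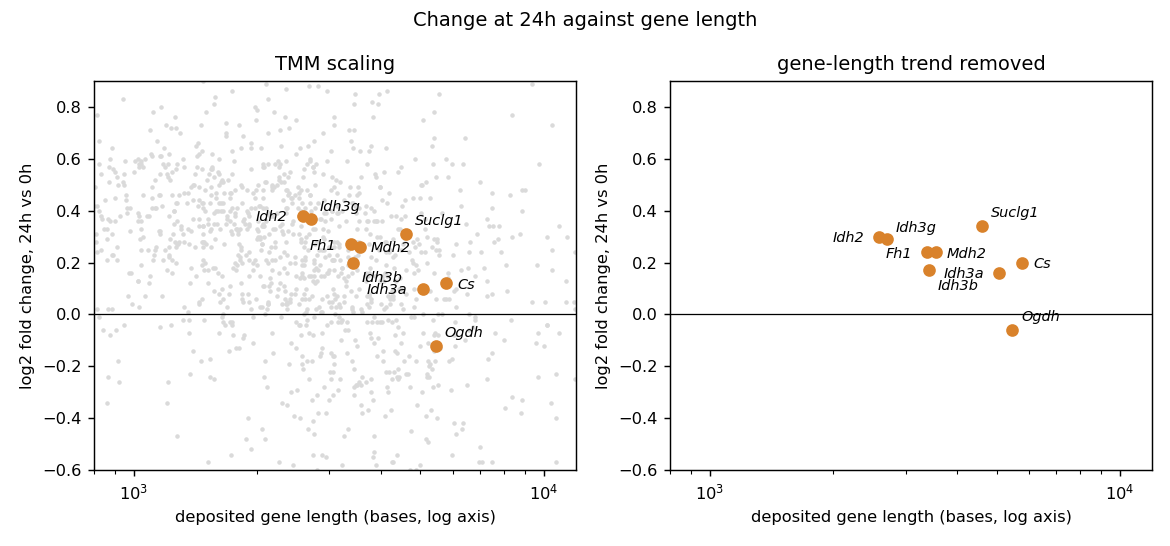
Log2 fold change at 24h against 0h (vertical axes) by deposited gene length (log axis) for the 9 genes in orange, as measured with TMM scaling on the left, over genes with a mean of 100 TPM or more in grey (genes beyond the axes are not drawn), and with the length trend removed on the right. Idh2 and Idh3g are the shortest and highest on the left, and Ogdh, among the longest, is below 0 in both panels.

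**Figure D5:**
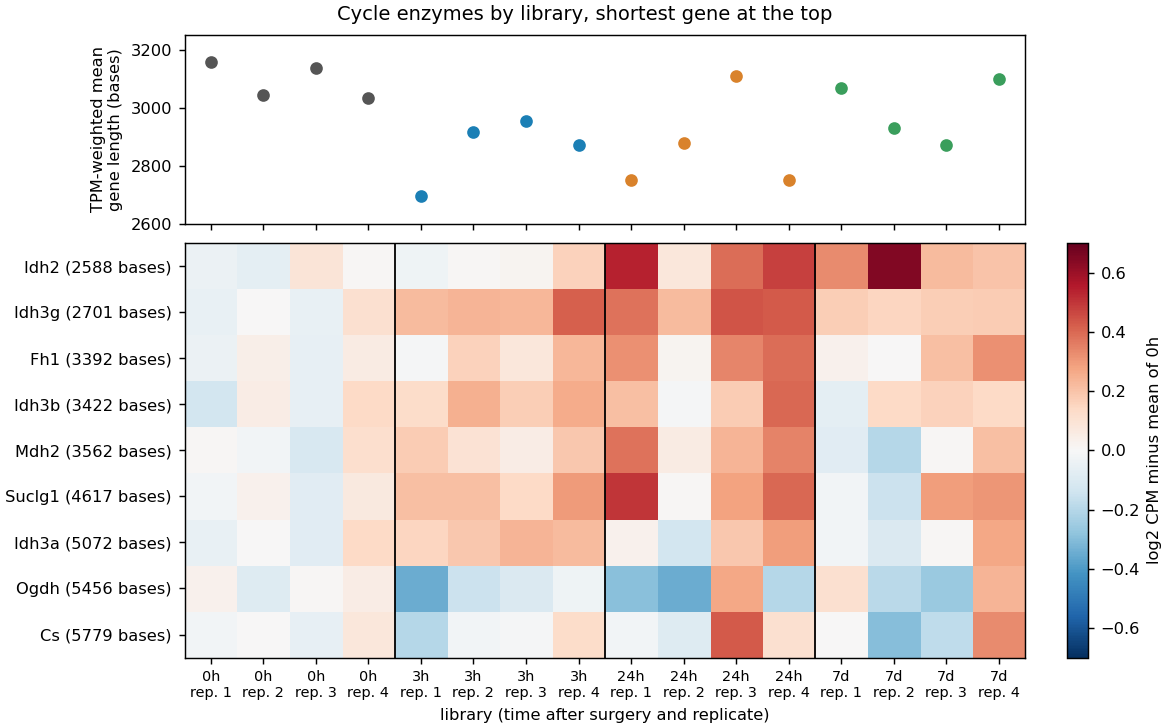
TPM-weighted mean gene length of each library (upper panel, in bases, axis not from 0) and log2 CPM of each of the 9 genes minus its mean at 0h (lower panel, colours), with genes from the shortest to the longest. Replicate 3 at 24h, at 3111 bases, is the 24h library in which Ogdh and Cs lie above their 0h mean the most.

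Over the 16 libraries the 9 genes varied together in part. The 36 pairwise Pearson correlations of log2 CPM ranged from -0.21 to 0.90 with a median of 0.57, and 6 were below 0, all involving Ogdh or Idh2. These values describe libraries that share times and depth and are given with no test. Suclg1 and Mdh2 had the highest correlation, 0.90, and 0.91 after each time's mean was taken out. Cs and Ogdh had 0.76 and, within times, 0.92, the highest of all pairs within times. The 3 subunits of NAD-dependent isocitrate dehydrogenase had 0.59 for Idh3a and Idh3g, 0.74 for Idh3a and Idh3b, and 0.78 for Idh3b and Idh3g. Idh2 had -0.04 with Idh3a and 0.51 with Idh3g.

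Of 7808 genes with a mean of 10 TPM or more, those whose log2 CPM over the 16 libraries correlated best on average with the 9 genes were Uqcrc2 and Acat1, each at a mean r of 0.67. Among those that followed were Fam234a at 0.65, Vdac1 and Atp5f1b at 0.64, Uqcrc1 at 0.63 and Mccc2 at 0.61. Each had a wide range of correlations with the single members, from 0.13 to 0.90 for Uqcrc2.

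Markers of cardiomyocytes, all 10 of which were detected, summed to 69543 to 78112 TPM at 24h, against 81427 to 85522 TPM at 0h, so the groups did not overlap. They summed to 78611 to 85138 TPM at 3h and 72535 to 93595 TPM at 7d. The gap at 24h was mostly Actc1, with 4829, 6236, 9276 and 4973 TPM, against 15946, 13032, 15539 and 14067 TPM at 0h. Each of the other cardiomyocyte markers overlapped between 24h and 0h. In Myh6 and Ryr2, replicates 1, 2 and 4 at 24h lay below every 0h library, and replicate 3 above every one. In Tnni3, replicates 1, 3 and 4 at 24h lay above every 0h library. In these bulk samples fewer cells of a type and less RNA per cell cannot be told apart. Neutrophil markers, of which 4 of 6 averaged 1 TPM or more, summed to 67.2 to 324 TPM at 24h, against 8.96 to 10.7 TPM at 0h. Endothelial markers, all 6 detected, summed to 312 to 456 TPM at 24h, against 446 to 599 TPM at 0h. The part of these cell types in the results for the 9 genes was not tested. The 3 brown fat markers summed to 107 to 164 TPM at 24h, against 81.5 to 98.6 TPM at 0h, with no overlap, and nearly all of that was Cidea, while Ucp1 reached at most 0.461 TPM and Elovl3 at most 0.774 TPM in any library. The 6 skeletal muscle markers, of which 4 averaged 1 TPM or more, summed to 3388 to 3847 TPM at 24h, against 3592 to 4696 TPM at 0h, nearly all of it Ckm and Acta1, while Myh4 and Myh1 reached at most 0.144 and 0.157 TPM. The part of brown fat and skeletal muscle was not tested either.

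Myl7, an atrial myosin light chain, had 63.8, 126, 6.97 and 159 TPM at 24h, against 0, 1.10, 9.59 and 0 TPM at 0h, although the labels give the left ventricle for all libraries. At 3h, replicate 3 had 146 TPM and the others at most 8.39 TPM, and at 7d the highest was 0.844 TPM. The 5 atrial markers summed to 479 to 1004 TPM at 24h, against 453 to 1465 TPM at 0h. Most of that was Nppa, at 469 to 835 TPM at 24h and 452 to 1450 TPM at 0h. Sln had 15.7, 18.5, 0.668 and 39.3 TPM at 24h, against at most 2.58 TPM at 0h. Myl4 had 17.3, 24.1, 2.28 and 21.6 TPM at 24h, against at most 3.09 TPM at 0h. Both were also high in replicate 3 at 3h, at 32.9 and 25.9 TPM. Bmp10 reached at most 0.0717 TPM in any library. With Myl7 as a covariate, none of the 9 genes and 120 of the 16866 genes were called at 24h. The log2 fold changes were 0.42 for Idh3g (edgeR adjusted p = 0.173) and 0.36 for Idh2 (edgeR adjusted p = 0.345), against 0.37 and 0.38 without that covariate. Myl7 was above every 0h library in replicates 1, 2 and 4 at 24h, so the covariate largely follows the time compared. This fit cannot tell Myl7 and time apart, and the part of atrial tissue was not tested. Replicate 3, the 24h library with little Myl7, had the highest Idh3g and Idh2 of that time in TPM. In TMM-scaled counts it had 2805 CPM for Idh2, against 3113 and 2985 CPM in replicates 1 and 4. For Idh3g it had 629 CPM, against 628.4 CPM in replicate 4. It is 1 library, and it also had the largest mean gene length of that time, 3111 bases. Whether its levels go with Myl7 was not tested.

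Of the 11 other enzyme genes of the cycle, 4 rose at 24h and none fell, where 9.2% of all genes rose, and the median of their log2 fold changes was 0.18. The number called ranged from 0, without replicate 1 at 24h, to 4 in fits without 1 library, with 1 without replicate 1 or 2 at 0h and 2 without replicate 3 at 0h, 2, 3 or 4 at 3h or 4 at 24h. They were Sdhc at 0.44 (edgeR adjusted p = 0.0111) and Sdhb at 0.39 (edgeR adjusted p = 0.0415), subunits of succinate dehydrogenase, Ogdhl at 0.43 (edgeR adjusted p = 0.0194), a paralogue of Ogdh, and Mrps36 at 0.36 (edgeR adjusted p = 0.0436), a component of the 2-oxoglutarate dehydrogenase complex. Sdhc had 752, 619, 671 and 684 TPM at 24h, against 581, 603, 583 and 584 TPM at 0h, with no overlap. The Sdhc call was lost without replicate 1 at 24h (adjusted p = 0.0607), and that of Ogdhl without replicate 1 at 24h or replicate 1 or 2 at 0h (adjusted p of 0.0504 to 0.0695). The call of Sdhb was lost without any 1 of 8 libraries (replicates 1, 2 and 3 at 0h, 2, 3 and 4 at 3h, 1 and 4 at 24h; adjusted p up to 0.179). That of Mrps36 was lost without any 1 of 10 (each at 0h, replicates 2, 3 and 4 at 3h, 1 and 4 at 24h, 1 at 7d; adjusted p up to 0.214). None of the 11 passed at 3h or 7d against 0h.

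Pyruvate enters the cycle through the pyruvate dehydrogenase complex, and none of its 6 genes, the pyruvate carrier included, passed at any time against 0h. At 24h the median of their log2 fold changes was 0.07, and 2 of the 6 were called without replicate 3 at 24h. Of the 7 kinases and phosphatases that switch the complex off and on, 2 rose and 1 fell at 24h, where 17.4% of all genes were called. Pdk2 and Pdk1, kinases that inhibit it, were each higher by 0.34 (edgeR adjusted p = 0.0323 and 0.0366), and the phosphatase Pdp1 fell to 26.0 ± 4.44 TPM at 24h, against 38.3 ± 2.03 TPM at 0h, a log2 fold change of -0.35 (edgeR adjusted p = 0.0482). Pdp1 was also lower at 3h, at -0.45 (edgeR adjusted p = 0.0363). The call of Pdk2 was lost without any 1 of the 0h libraries or replicate 1 or 4 at 24h (adjusted p up to 0.0986), and that of Pdk1 without replicate 1, 2 or 4 at 0h, 2 at 3h, or 1, 3 or 4 at 24h (adjusted p up to 0.099). That of Pdp1 was lost at 3h without any 1 of the 8 libraries compared (adjusted p up to 0.114), and at 24h without any 1 of the 0h libraries, replicates 2, 3 and 4 at 3h, 1, 2 and 4 at 24h, and 1 and 3 at 7d (adjusted p up to 0.152).

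Pdk4, the kinase known to rise in fasting, is given here although it did not pass against 0h, and was chosen after its values were seen. It had 936, 1487, 1325 and 975 TPM at 3h, 2223, 1076, 484 and 1618 TPM at 24h and 282, 91.4, 276 and 191 TPM at 7d, against 671, 679, 833 and 279 TPM at 0h. All 4 libraries at 3h lay above all 4 at 0h, while at 24h replicate 3 lay within the 0h range. The log2 fold change at 24h against 0h was 1.42 (SE 0.49, edgeR adjusted p = 0.0632), and Pdk4 fell at 7d against 24h, by 2.87 (SE 0.51, edgeR adjusted p = 0.00493). The call at 7d against 24h was lost with the compared groups alone (-2.87, adjusted p = 0.0625) and with Myl7 as a covariate (-2.04, adjusted p = 0.461). Against 0h at 24h Pdk4 did pass without replicate 3 at 24h (edgeR adjusted p = 0.0122), with DESeq2 (adjusted p = 0.00826), with the stricter filter (edgeR adjusted p = 0.0482) and with no filter.

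Among 21 tested genes of the cytosolic partner enzymes, the carriers and the reactions that refill the cycle, 3 rose at 24h, a share near the 9.2% of all genes that rose. The number called was 6 without replicate 2 at 24h and 2 without replicate 1 at 0h or 4 at 24h. Got1, the cytosolic aspartate aminotransferase of the malate-aspartate shuttle, had 1186, 880, 1173 and 1150 TPM at 24h, against 844, 795, 896 and 766 TPM at 0h. Replicate 2 at 24h was the only one within the 0h range, and the log2 fold change was 0.64 (SE 0.13, edgeR adjusted p = 0.00208). Pccb, a subunit of propionyl-CoA carboxylase, was higher by 0.50 (edgeR adjusted p = 0.00448), and cytosolic malic enzyme Me1 by 0.40 (edgeR adjusted p = 0.0173). The call of Me1 was lost without replicate 1 at 0h or replicate 4 at 24h (adjusted p of 0.0614 and 0.0656), and those of Got1 and Pccb were kept in every fit without 1 library.

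Of 12 regulators of mitochondrial genes, 1 fell and none rose at 24h, where 8.19% of all genes fell. The number called was 7 without replicate 3 at 24h, 0 without replicate 1 at 24h and 0 to 6 under the other settings. Ppargc1b, a coactivator of mitochondrial gene expression, had 7.43, 8.80, 12.5 and 2.57 TPM at 24h and 6.21, 8.23, 8.58 and 7.06 TPM at 3h, against 18.2, 22.2, 17.9 and 21.7 TPM at 0h. Both groups lay below all 0h libraries. The log2 fold change was -1.17 at 24h (edgeR adjusted p = 0.0158) and -1.24 at 3h (edgeR adjusted p = 0.0308). The 24h call was lost without replicate 1 at 24h (adjusted p = 0.0528) and the 3h call without any 1 library of the 2 groups (adjusted p up to 0.106). At 7d Ppargc1b averaged 16.9 ± 6.72 TPM and did not pass against 0h, at -0.17 (edgeR adjusted p = 0.83). None of the calls against 0h named here among the lists was kept with Myl7 as a covariate, which largely follows the 24h group. On the log2(TPM + 1) scale those of Ogdhl, Sdhb, Mrps36, Pdk1, Pdk2, Pccb and Me1 were lost. Quantile normalization ended the 24h calls of Sdhc, Sdhb, Mrps36, Pdk1, Pdk2 and Pdp1. Library totals ended those of Ogdhl, Sdhb, Mrps36, Pdk1, Pdk2 and Me1. The replicate block ended those of Sdhb, Mrps36, Pdk1 and Pdp1 at 24h and that of Ppargc1b at 3h (edgeR adjusted p = 0.0673). With the length trend removed, Mrps36, Sdhb, Pdp1 and Pdk2 lost their 24h calls (edgeR adjusted p = 0.239, 0.103, 0.0673 and 0.0561). The compared groups alone ended the 24h calls of Sdhb, Mrps36, Pdk2 and Pdk1. Scaling by DESeq2 size factors ended that of Pdp1, and a fit with no filter those of Pdp1 and Pdk2. The calls of Got1 at 24h and Ppargc1b at 24h were ended by none of the other scalings.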

How the data were processed

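TRIzol RNA of left ventricle went into directional NEBNext libraries, per the labels' protocols. The submitters' processing notes name cutadapt, STAR and mm10; which tool counted reads, with which strand setting, is not given in the sources used here. The authors deposited raw counts, TPM and FPKM per gene. Recomputed from counts and gene lengths, TPM and FPKM matched the deposited ones to a relative 1e-06. FPKM values deposited by the authors served only to give the mean gene length. Column names carry another prefix than the sample titles and were matched by time and number. The table held 0 genes of the mitochondrial genome.

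The 16866 genes averaging at least 0.5 TPM were tested on counts in edgeR 4.0.16 (R 4.3.3; TMM, robust quasi-likelihood F test, all 16 libraries in 1 fit) with Benjamini-Hochberg adjustment within each comparison; the comparisons against 0h share its libraries. The fit was tested on simulated counts with planted folds larger than those of Idh2 and Idh3g and with no length trend. That test does not cover changes of their size. Ratios were tested by exact permutation. Alternatives used DESeq2 1.42.0 and limma 3.58.1, other scalings, other filters, fits without 1 library, and a lowess length trend (span 0.3) removed through offsets. Promoters and coordinates came from RefSeq and GENCODE tables of GRCm38. The members and lists were chosen with earlier results of these data known. List genes were named where they passed against 0h, at most 4 per list and comparison by p. Of the genes ranked by likeness to the members, 1 is not reported here.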

Additional observations from a re-analysis of the deposited data

Results flagged for a closer look

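A library was set aside for a closer look where its gap to the next, over the range of the 4 libraries of its time, was above Dixon's 95% critical value. Of 56 groups of values, 4 met this, and chance gives about 1 in 20. Ogdh at 24h was highest in replicate 3, at 1265 TPM, where the other three had 735.8 to 822.6 TPM. Fh1 at 3h was lowest in replicate 1, at 363 TPM, where the other three had 439.5 to 454.6 TPM. The log2 ratio of Idh3g to Idh3b at 7d was highest in replicate 1, at -0.48, where the other three had -0.73 to -0.69. The log2 ratio of Idh2 to Idh3a at 24h was highest in replicate 1, at 3.27, where the other three had 2.95 to 2.97.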

How the results depend on the processing

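The count of the 9 genes called at 24h against 0h, 2 by the test reported, was 5 with DESeq2, 1 with library totals, quantile normalization, the compared groups alone or the replicate block, and 0 with limma on log2(TPM + 1) or log2(TPM + 0.1) or with Myl7 as a covariate. It was 2 with the other settings, and 1 to 4 without 1 library. At 3h it was 0 in the reported test and 1 with DESeq2 or the compared groups alone. At 24h against 3h it was 1 with DESeq2 and 0 to 1 without 1 library; at 7d against 24h 2 with DESeq2; at 7d against 3h 1 with limma at either pseudocount. Any change over time, 2 as reported, gave 3 with DESeq2, 1 with library totals, limma, no filter or the length trend removed, and 0 with quantile normalization, the replicate block or Myl7, with 0 to 2 without 1 library; the compared groups alone give no such test.

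Directions reversed for Cs at 24h (-0.11 with quantile normalization and limma), Idh3a at 24h (-0.01 with library totals, -0.15 with quantile normalization, -0.12 with limma), Idh3b at 24h (-0.02 with limma) and Idh2 at 3h (-0.03 with library totals, -0.14 with quantile normalization and limma, -0.05 with the length trend removed). The cause was not tested. Replicate numbers did not pair the libraries (correlations of -0.12 to 0.06, none of 24 over 0.1); with the replicate block the adjusted p at 24h was 0.0569 for Idh2 and 0.0174 for Idh3g. Calls among the lists at 24h ranged from 0 to 7 a list over all settings.

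Over all genes, the 2933 calls at 24h were 120 with Myl7, and the share of them that were higher, 52.9%, was 30.6% with library totals and 18.1% with limma on log2(TPM + 1). The 850 calls at 3h were 3224 with the compared groups alone, 1415 with DESeq2, 559 with the length trend removed and 220 with Myl7; the 145 at 7d were 735 with no filter, 478 with DESeq2, 408 with the compared groups alone, 64 with the replicate block and 32 to 57 with limma. The share of calls that were higher was 36.9% at 3h, 24.0% with library totals, 16.6% with limma on log2(TPM + 1) and 50.3% with the length trend removed; it was 21.4% at 7d, 9.66% with library totals and 3.51% with limma on log2(TPM + 1); and it was 46.3% at 7d against 24h, 59.6% with library totals and 66.9% with limma on log2(TPM + 1). On that last scale the median of all genes was lower at 3h than at 0h by 0.15. At 24h against 3h the 1279 calls were 812 with the compared groups alone and 554 with Myl7; at 7d against 24h the 1363 were 354 and 27; at 7d against 3h the 778 were 1458 with no filter, 493 with limma and 233 with Myl7; for any change over time the 3402 were 902 with Myl7. Member counts of 3150 or more leave little counting error, so the spread between libraries sets the precision.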
